A study of Arabidopsis thaliana with 6 samples.

Results

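The genes described here code for 10 cell wall glycosidases of Arabidopsis thaliana: the beta-xylosidases BXL1 to BXL4, the beta-galactosidases BGAL1 to BGAL5 and the alpha-xylosidase XYL1. They were taken by locus from a table of 33602 loci, and the set was chosen from the RPKM values of this comparison, because BXL2 (AT1G02640) and BGAL1 (AT3G13750) were much lower in the mutant. The comparison of genotypes is therefore a description for these 10 genes, with no test. The tested plants were cfm6-1, labelled CFM6-/- in the Col-0 background, with 3 libraries, and the wild type was Col-0, with 3 libraries. Both were whole seedlings at day 14 after germination, grown at 22 °C on MS medium with 1% sucrose under 16 h of light and 8 h of dark. CFM6 is a CRM domain protein, one of a family of plant RNA-binding proteins of intron splicing, and the series title ties it to a mitochondrial intron of nad5. The sources used here give neither the kind of lesion in cfm6-1 nor the number of seedlings per library or the hour of harvest.

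These enzymes act outside the cell and remove single sugars from the ends of wall polysaccharides. Beta-xylosidases of this group trim xylose from xylan chains, and some of them also take arabinose from arabinan side chains of pectin. Beta-galactosidases remove galactose from pectic galactan, xyloglucan and arabinogalactan proteins, and the alpha-xylosidase removes xylose from xyloglucan fragments. Transcripts of some of them, BXL1 and BGAL4 among them, are known from Arabidopsis to respond to the supply of sugar.

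The values were RPKM (reads scaled by transcript length in kilobases and by library size in M reads, where M stands for 1e6), and the depth rebuilt from them was 47.3 to 52.7 M reads in cfm6-1 and 49.6 to 50.6 M in wild type libraries. The CRM domain locus taken as CFM6, AT4G13070, was at 1.23 to 1.32 RPKM in cfm6-1 and at 3.69 to 4.10 RPKM in wild type. Leaf markers were abundant, with summed levels of 15153 to 16259 RPKM over 5 genes in cfm6-1 and 22757 to 26886 RPKM in wild type, and all 7 root markers were detected in both genotypes. The 4 floral organ identity genes summed to at most 1.55 RPKM in cfm6-1 and 2.12 RPKM in wild type. The 4 seed storage genes summed to 0.41 to 2.07 RPKM in cfm6-1 and at most 0.09 RPKM in wild type. The highest sum was in cfm6-1 replicate 1. There CRA1 and CRU3 were at 0.71 and 0.59 RPKM, against at most 0.06 and 0.01 RPKM in cfm6-1 replicates 2 and 3. In whole seedlings fewer cells of a type and less RNA per cell cannot be told apart.

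The 250 bases before the annotated start of the 4 genes with the lowest levels relative to wild type are shown because these genes were low together; they come from RefSeq, build TAIR10.1. They are BXL2 (plus strand, chr1:563768-564017), BGAL1 (plus strand, chr3:4510715-4510964), BGAL4 (plus strand, chr5:23003659-23003908) and BXL1 (minus strand, chr5:20016858-20017107), printed in the direction of transcription, with motif matches in capitals.
BXL2: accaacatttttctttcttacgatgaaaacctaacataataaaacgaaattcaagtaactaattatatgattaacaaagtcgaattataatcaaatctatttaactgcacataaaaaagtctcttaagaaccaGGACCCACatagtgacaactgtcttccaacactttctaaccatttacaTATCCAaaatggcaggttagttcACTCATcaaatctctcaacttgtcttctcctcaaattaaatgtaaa
BGAL1: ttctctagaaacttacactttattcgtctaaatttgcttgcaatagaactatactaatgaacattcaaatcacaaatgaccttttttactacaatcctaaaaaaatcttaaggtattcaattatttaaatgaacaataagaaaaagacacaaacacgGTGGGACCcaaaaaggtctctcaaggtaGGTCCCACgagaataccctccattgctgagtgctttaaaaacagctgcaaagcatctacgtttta
BGAL4: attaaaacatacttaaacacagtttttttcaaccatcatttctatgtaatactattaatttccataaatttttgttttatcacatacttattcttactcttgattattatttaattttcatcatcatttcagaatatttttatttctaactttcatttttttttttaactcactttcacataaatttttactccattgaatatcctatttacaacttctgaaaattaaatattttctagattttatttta
BXL1: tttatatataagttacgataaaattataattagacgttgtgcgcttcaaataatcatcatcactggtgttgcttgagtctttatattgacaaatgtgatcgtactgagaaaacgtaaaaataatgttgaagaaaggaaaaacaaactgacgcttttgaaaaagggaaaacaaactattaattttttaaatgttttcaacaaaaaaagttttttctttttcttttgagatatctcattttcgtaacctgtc
Searched on both strands were CACGTG (the G-box), ACTCAT (a site of S1-group bZIP factors), TATCCA (known from sugar-responsive alpha-amylase genes of rice), TTATCC (a sugar-repressive element), AACCCTA (the telo-box) and GGNCCCAC (the site of class I TCP factors). The motifs TATCCA and TTATCC can overlap. GGNCCCAC was added to the search because it had been seen in the windows of BXL2 and BGAL1, so its presence there is a description and carries no weight. It stands once in BXL2 (GGACCCAC) and at 2 places in BGAL1 (GTGGGACC and GGTCCCAC; its reverse complement is GTGGGNCC), and the other 8 windows lack it. Of 27443 such windows before protein-coding genes, 299 (1.09%) hold it and 23 hold it more than once. ACTCAT and TATCCA each occurred in the window of BXL2 only, against 12.3% and 13.6% of all windows. TTATCC occurred before BXL3 and XYL1, against 12.5% of windows. CACGTG and AACCCTA, found in 6.49% and 6.56% of windows, were in none of the 10. The windows of BXL1 and BGAL4 hold none of the 6 motifs.

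Among the beta-xylosidases, BXL1 and BXL2 were low in cfm6-1 while BXL4 was level. BXL2 was at 8.27, 8.43 and 8.62 RPKM in cfm6-1 replicates 1 to 3, against 48.45, 48.82 and 50.06 RPKM in wild type replicates 1 to 3. The libraries of each genotype lay close together, and the groups were far apart. The mean in cfm6-1, 8.44 ± 0.175 RPKM, was 17.2% of the wild type mean of 49.1 ± 0.843 RPKM (SD, n = 3 each). On the log2(RPKM + 1) scale the fitted difference was -2.41 (SE 0.04).

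BXL1 (AT5G49360) codes for a bifunctional beta-xylosidase and alpha-arabinofuranosidase, known from its effect on pectic arabinan in seed mucilage. It was at 78.75, 71.73 and 72.65 RPKM in cfm6-1, against 247.68, 262.14 and 301.77 RPKM in wild type. Wild type replicate 3 was the highest of the 6 libraries, and the groups did not overlap. The cfm6-1 mean was 27.5% of the wild type mean, with a fitted difference of -1.85 (SE 0.08) on the log2 scale.

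BXL4 (AT5G64570), a beta-xylosidase, was at 79.57, 82.03 and 77.53 RPKM in cfm6-1, against 72.76, 78.39 and 88.90 RPKM in wild type. The cfm6-1 values lay within the wild type range, and the means were 79.7 ± 2.25 RPKM in cfm6-1 and 80.02 ± 8.19 RPKM in wild type (SD, n = 3 each). Its level is uncertain, because up to a share of 0.663 of the reads at this locus mapped to several places, to go by the name of the deposited value. The antisense locus that overlaps it, AT5G64572, is listed at 0 in all 6 libraries. BXL3 (AT5G09730), an enzyme related to BXL4, was near the floor of detection in seedlings: it was at 0.23, 0.13 and 0.10 RPKM in cfm6-1, against 0.22, 0.23 and 0.16 RPKM in wild type. These values stand for about 56 reads over the 3 cfm6-1 libraries and 75 over the 3 wild type libraries, and the groups overlapped. BXL3 was below the filter of 1 RPKM in at least 3 libraries, so 9 of the 10 genes entered the fit; each of the 9 passed it in both genotypes.

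The beta-galactosidases were split in the same way, with BGAL1, BGAL4 and BGAL2 low in cfm6-1 and BGAL3 and BGAL5 near the wild type level. BGAL1, the most abundant of the 10 in wild type, was at 75.45, 70.99 and 68.91 RPKM in cfm6-1, against 378.76, 388.79 and 393.04 RPKM in wild type. Every cfm6-1 library was below every wild type library by a wide margin. The cfm6-1 mean of 71.8 ± 3.34 RPKM was 18.6% of the wild type mean of 387 ± 7.33 RPKM (SD, n = 3 each), and the fitted difference was -2.41 (SE 0.05).

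BGAL4 (AT5G56870) was at 45.79, 42.00 and 39.16 RPKM in cfm6-1, against 147.88, 158.08 and 174.99 RPKM in wild type. The cfm6-1 mean was 26.4% of the wild type mean, with a fitted difference of -1.90 (SE 0.08) on the log2 scale. As for BXL1, wild type replicate 3 was the highest library. An antisense locus overlaps BGAL4, AT5G56880, and it was at 0.66 to 0.75 RPKM in cfm6-1 and 0.10 to 0.16 RPKM in wild type, far below BGAL4 itself.

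BGAL2 (AT3G52840) was at 21.61, 20.52 and 20.86 RPKM in cfm6-1, against 44.09, 42.59 and 47.85 RPKM in wild type. The groups did not overlap, and the cfm6-1 mean was 46.8% of the wild type mean (fitted difference -1.06, SE 0.05). BGAL2 and BGAL4 are close relatives in a group of BGAL enzymes linked to pectic galactan.

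BGAL3 (AT4G36360) was at 19.00, 17.63 and 16.62 RPKM in cfm6-1, against 18.48, 16.84 and 17.01 RPKM in wild type. The highest and the lowest of these values were both cfm6-1 libraries, and the means were 17.8 ± 1.19 RPKM in cfm6-1 and 17.4 ± 0.902 RPKM in wild type (SD, n = 3 each). BGAL5 (AT1G45130) was at 18.17, 18.05 and 16.75 RPKM in cfm6-1, against 19.47, 19.19 and 19.01 RPKM in wild type. The cfm6-1 libraries lay just below the wild type libraries, at 91.9% of the wild type mean, with a fitted difference of -0.12 (SE 0.05) on the log2 scale.

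XYL1 (AT1G68560), the alpha-xylosidase that removes xylose from the non-reducing ends of xyloglucan fragments, was at 98.09, 94.88 and 88.04 RPKM in cfm6-1, against 116.97, 106.81 and 118.84 RPKM in wild type. The groups did not overlap, with cfm6-1 replicate 1 the nearest to wild type. The cfm6-1 mean was 82.0% of the wild type mean (fitted difference -0.28, SE 0.06 on the log2 scale).

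**Figure D1:**
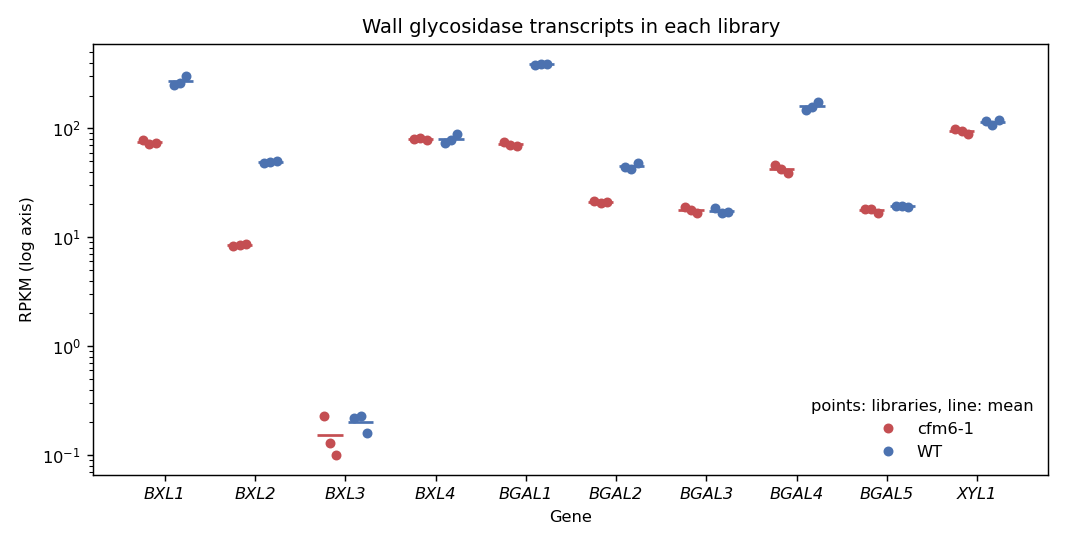
RPKM on a log axis for each of the 10 genes, with the 3 cfm6-1 libraries (red) left of the 3 wild type libraries (blue); points are libraries and lines are means. BXL1, BXL2, BGAL1, BGAL2 and BGAL4 are well separated between the genotypes, XYL1 and BGAL5 narrowly, and BXL3, BXL4 and BGAL3 overlap.

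In the limma fit over 20047 loci, 6 of the 9 genes tested were below the adjusted p threshold of 0.05 with a lower level in cfm6-1 and none with a higher one; the same fit called 30.2% of all tested loci lower and 38.6% higher, 68.8% in either direction. Over all 10 genes the cfm6-1 values lay entirely below the wild type values at 7 and entirely above at none, where 32.8% of tested loci lay below and 41.5% above. Both counts come from the comparison that chose the genes, and nothing is read from them.

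The order of the genes by level differed between the genotypes, which RPKM allows to be compared because it is per length. In wild type the order from high to low was BGAL1, BXL1, BGAL4, XYL1, BXL4, BXL2, BGAL2, BGAL5, BGAL3 and BXL3, and no neighbours in it overlapped over the 3 libraries. In cfm6-1 it was XYL1, BXL4, BXL1, BGAL1, BGAL4, BGAL2, BGAL3, BGAL5, BXL2 and BXL3. There BXL4 overlapped BXL1, BXL1 overlapped BGAL1, and BGAL3 overlapped BGAL5, so these neighbours did not differ beyond their spread. The place of BXL4 in both orders is uncertain because of its multiply mapped reads. In cfm6-1 BXL2 was above 39.6% of all tested loci, against 87.5% in wild type. BGAL1 was above 91.1% of tested loci in cfm6-1, against 99.1% in wild type, so it was still among the more abundant transcripts of the mutant.

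The summed level of the 10 genes was 427 ± 17.8 RPKM in cfm6-1 and 1143 ± 61.2 RPKM in wild type (SD, n = 3 each), and the 2 ranges were far apart. BXL1, BGAL1 and BGAL4 together held 44.1 ± 0.814% of this sum in cfm6-1 and 71.5 ± 0.723% in wild type. XYL1 and BXL4 held 40.6 ± 0.794% in cfm6-1 and 16.99 ± 0.432% in wild type. The level of BXL4 is uncertain because of its multiply mapped reads (share up to 0.663), and so are the sums and shares that include it. Within all 17 BGAL genes, BGAL1 held 27.0 ± 0.295% of the summed level in cfm6-1 and 50.9 ± 0.627% in wild type. Within all 7 BXL genes, BXL1 held 37.1 ± 1.36% in cfm6-1 and 61.0 ± 1.29% in wild type.

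**Figure D2:**
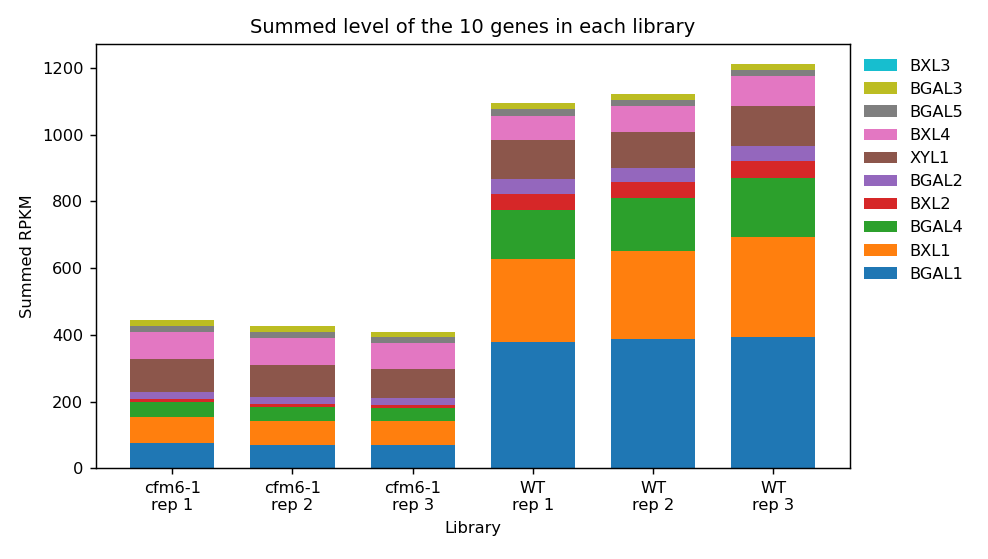
Summed RPKM of the 10 genes in each library, stacked by gene, with the 3 cfm6-1 libraries left of the 3 wild type libraries. The cfm6-1 bars reach 409 to 445 RPKM and the wild type bars 1095 to 1212 RPKM, and the segments of BGAL1, BXL1 and BGAL4 make up most of the distance.

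The rest of the 2 enzyme families was tested in the fit over all loci. These genes are what the choice left over, and all lists were set with earlier results of these data known. Their counts are therefore not independent of the choice. Of the other 15 genes, 9 were tested. BXL5 passed the filter on low values only through the wild type libraries, so the direction of its difference was fixed by the filter. Of the other 8 genes, 5 fell, 1 rose and 2 did not pass, beside 30.2% lower and 38.6% higher of all tested loci. BGAL8 (log2 change -1.28, SE 0.07) fell to 9.08 ± 0.635 RPKM in cfm6-1, against 23.5 ± 1.75 RPKM in wild type (SD, n = 3 each; limma adjusted p = 1.05e-05). BGAL12 was at 4.26, 4.15 and 4.18 RPKM in cfm6-1, against 7.49, 6.23 and 6.57 RPKM in wild type (log2 change -0.58, SE 0.07, limma adjusted p = 0.000294). BGAL6, known as MUM2 from the pectin of seed mucilage, fell to 72.6% of wild type (limma adjusted p = 0.000179). BGAL10, the beta-galactosidase of xyloglucan, fell to 77.3% of wild type (limma adjusted p = 0.00714).

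BXL6 fell to 74.7% of wild type (limma adjusted p = 0.000178), and BXL7 was the gene that rose, to 18.4 ± 0.217 RPKM in cfm6-1, against 15.7 ± 0.338 RPKM in wild type (SD, n = 3 each; limma adjusted p = 0.00322). BXL5 was at 0.84, 0.75 and 0.78 RPKM in cfm6-1, against 2.29, 2.78 and 2.10 RPKM in wild type. BGAL9 was at 16.7 ± 0.674 RPKM in cfm6-1 and 16.8 ± 0.122 RPKM in wild type, and BGAL17 at 5.74 ± 0.423 RPKM in cfm6-1 and 5.34 ± 0.210 RPKM in wild type (SD, n = 3 each; limma adjusted p = 0.871 for BGAL9 and 0.275 for BGAL17). The 6 genes below the filter were BGAL7, BGAL11 and BGAL13 to BGAL16. BGAL16 was at 0.80 to 1.19 RPKM in cfm6-1 and 0.91 to 0.97 RPKM in wild type, BGAL7 at most 0.45 RPKM in cfm6-1 and 0.63 RPKM in wild type, and BGAL11 at most 0.02 RPKM in cfm6-1 and 0.08 RPKM in wild type. BGAL13, BGAL14 and BGAL15 were at or below 0.03 RPKM in every library. Antisense genes overlap BXL5, BXL7, BGAL8, BGAL9, BGAL12 and BGAL14, and it is not given whether counting used strand, so reads of the partners cannot be told apart there. An antisense partner of BXL7, AT1G78050, was itself at 6.43 RPKM in cfm6-1 and 4.57 RPKM in wild type on average. Whether its reads add to the rise of BXL7 was not tested.

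Relatedness in coding sequence was set beside these levels as a feature that had no part in the choice. Over all pairs within a family, identity of the aligned coding bases ran from 59.9% to 83.8% for the BGAL genes and from 60.1% to 77.4% for the BXL genes. BGAL2, BGAL4 and BGAL12 were closest to each other, at 79.9% to 83.8%, and all 3 were lower in cfm6-1, at 46.8%, 26.4% and 62.1% of wild type. Of all tested loci 30.2% were called lower. BGAL3 and BGAL5 were each other's closest relatives (71.4%), and they were at 102% and 91.9% of the wild type level. BGAL1 was closest to BGAL12 (71.7%), and these were at 18.6% and 62.1% of wild type. BGAL10 was closest to BGAL8 (66.2%), and these were at 77.3% and 38.6%. BXL1 and BXL2 were closest to each other (68.2%), at 27.5% and 17.2%. BXL3 and BXL4 were the closest pair of BXL genes (77.4%), and the level of BXL3 was near 0. BXL6 was closest to BXL7 (62.4%), and these went opposite ways, at 74.7% and 117% of wild type. At BXL7 the reads of antisense partners cannot be told apart. BGAL1 to BGAL5, BXL1 to BXL3 and XYL1 had a multi-mapping share of 0. The coding regions have 724 to 856 codons in BGAL1 to BGAL5, in 17 to 19 exons, and 768 to 784 codons in BXL1 to BXL4, in 5 or 6 exons, while XYL1 has 915 codons in 3 exons.

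**Figure D3:**
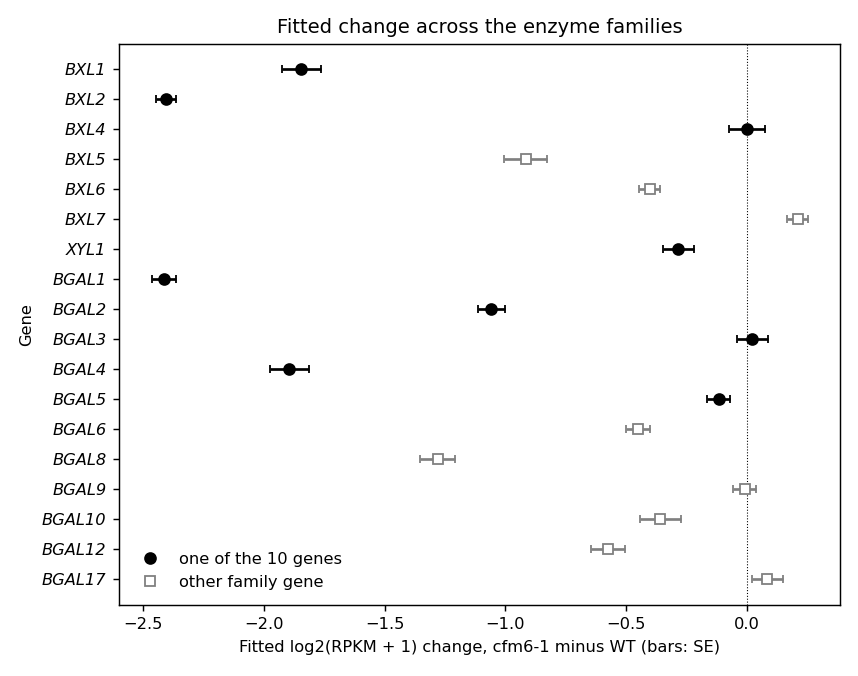
Fitted change on the log2(RPKM + 1) scale, cfm6-1 minus wild type, for the BXL, XYL1 and BGAL genes that passed the filter; bars are standard errors, filled circles the genes of the chosen 10 and open squares the other family members. Values run from -2.41 for BGAL1 and BXL2 to 0.21 for BXL7.

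Genes of 4 further lists, on wall polysaccharides and the released sugars, were counted beside all tested loci, of which 38.6% were called higher and 30.2% lower; no test set a list against the other loci. Over the 52 genes of these lists, 50 were tested, 18 rose and 22 fell; with quantile normalization of the libraries 11 rose and 26 fell. GUX2 and CSLC12 passed the filter through 1 genotype only, so the direction of their calls was fixed by it. CSLC12 is a glucan synthase gene named here after its values were seen. Without GUX2 and CSLC12, 17 rose and 21 fell. Of 12 tested exoglycosidases other than the 2 families, 3 rose and 5 fell, with a median log2 change of -0.01, beside 0.05 for all tested loci. ASD1, an alpha-arabinofuranosidase of the wall, fell to 36.6 ± 1.45 RPKM in cfm6-1, against 79.9 ± 1.72 RPKM in wild type (SD, n = 3 each; limma adjusted p = 4.12e-06). GUS1, a beta-glucuronidase, fell to 39.4% of wild type (limma adjusted p = 2.29e-05), and AGAL3, an alpha-galactosidase, to 68.1% (limma adjusted p = 0.000126). BGLC1, a beta-glucosidase that acts on xyloglucan, rose 1.31-fold (limma adjusted p = 0.00514).

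Of 12 tested xylan synthesis genes other than GUX2, 8 fell and 2 rose, beside 30.2% lower and 38.6% higher of all tested loci, with a median log2 change of -0.33 (-0.44 with GUX2). IRX9, needed for the xylan backbone, fell to 2.95 ± 0.185 RPKM in cfm6-1, against 4.88 ± 0.0964 RPKM in wild type (SD, n = 3 each; limma adjusted p = 0.000135). IRX15 and FRA8, which act in xylan formation, fell to 51.4% and 59.5% of wild type (limma adjusted p = 0.000211 and 0.000383). GUX2, which adds glucuronic acid side chains, was at 39.8% of wild type, and its 3 cfm6-1 libraries were all below the filter of 1 RPKM. Of 10 markers of xylem and secondary walls 9 were tested, 8 fell and none rose, against the same shares of all loci; none was at 0, and their summed level was 72.2 to 86.9 RPKM in cfm6-1 and 138 to 162 RPKM in wild type. Of the 5 leaf markers 4 fell and none rose, and of the 7 root markers 4 fell and 2 rose. With quantile normalization only 2 leaf markers fell, while the root counts stayed the same. With no filter the leaf markers RBCS1A and CAB1 did not pass the threshold. The root markers MYB36 and WER lost it when some single libraries were left out. The part of these tissues in the levels of the 10 genes and of the other wall genes was not tested.

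Of 13 tested xyloglucan and galactan synthesis genes other than CSLC12, 7 rose and 4 fell, beside 38.6% higher and 30.2% lower of all tested loci, with a median log2 change of 0.36 (0.37 with CSLC12). CSLC12 was at 1.44 RPKM in cfm6-1 and 0.69 RPKM in wild type on average. XXT1, a xyloglucan xylosyltransferase, was at 40.90, 40.59 and 57.10 RPKM in cfm6-1, against 18.29, 18.23 and 19.54 RPKM in wild type (log2 change 1.24, SE 0.13, limma adjusted p = 0.000120). FUT1, which adds fucose to xyloglucan, rose 1.36-fold and the xylosyltransferase XXT5 1.46-fold (limma adjusted p = 0.000195 and 0.000266). XLT2, which adds galactose to xyloglucan, fell to 53.7% of wild type (limma adjusted p = 0.000106).

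Of 11 genes for the use of the released sugars, 5 rose and 4 fell, beside 38.6% higher and 30.2% lower of all tested loci. These counts depended on the scaling. With quantile normalization of the libraries 1 of them rose and 5 fell, where 6562 of 20047 tested loci rose and 7248 fell. Of the 5 genes that rose in the main fit, 1 had a multi-mapping share of up to 0.904, so its level is uncertain. It also lost the threshold under several alternatives. The gene annotated in RefSeq as a xylose isomerase family protein, AT5G57655, was at 137.53, 128.94 and 114.96 RPKM in cfm6-1, against 274.54, 295.78 and 330.76 RPKM in wild type (log2 change -1.23, SE 0.09, limma adjusted p = 2.89e-05). The epimerases UGE1 and UGE3, which convert UDP-galactose and UDP-glucose, fell to 54.0% and 63.9% of wild type (limma adjusted p = 4.66e-05 and 7.26e-05). ARA1, the arabinose kinase, fell to 77.7% (limma adjusted p = 0.000499).

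**Figure D4:**
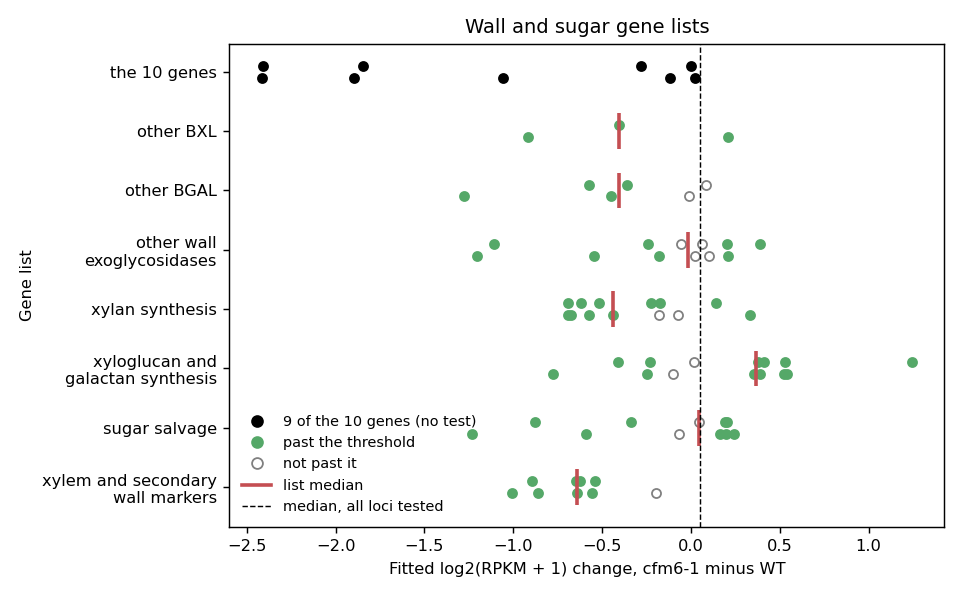
Fitted log2(RPKM + 1) change, cfm6-1 minus wild type, for each tested gene of the wall and sugar lists; each point is a gene, red bars are list medians and the dashed line is the median of all tested loci (0.05). The medians, with GUX2 and CSLC12 in, are -0.44 for xylan synthesis, 0.37 for xyloglucan and galactan synthesis and -0.64 for the xylem and secondary wall markers.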

How the data were processed

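Total RNA of whole seedlings gave single-end reads of 100 bp (labels' protocols), with TAIR10 as genome build per the submitters' processing notes. Aligner, counting tool and strand setting: not given in the sources used here. The authors deposited RPKM values per locus with 2 decimals, and a fraction from 0 to 1 that, to go by its column name, gives the maximum multi-mapping share. Another deposited table gave gene model lengths; its 6 columns of coded libraries, and 6 rows of mapping totals, could not be tied to samples and were not used.

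The 10 genes and all lists were chosen with earlier results of these data known. Depth was read from the steps of 1 read in genes under 0.3 kb; at that depth 100% of 336 to 376 values per library lay within 0.1 of a whole read. Replicates differed beyond sampling noise, with a chi-square over degrees of freedom of 10.5 to 25.1. They are called biological replicates in the labels.

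In limma 3.58.1 (R 4.3.3), log2(RPKM + 1) was fitted on genotype, allowing for a mean-variance trend, over the 20047 loci that reached 1 RPKM in 3 or more libraries, with Benjamini-Hochberg adjustment. The pseudocount of 1 understates changes of low genes, so percentages and folds are ratios of mean RPKM. From each list other than the families, up to 4 genes in order of adjusted p were named. Gene symbols are the names in common use, assigned by locus; annotation and sequences came from RefSeq TAIR10.1 (107 of 107 list loci matched), coding identity from global alignments of the longest coding sequence (Biopython 1.88). Alternatives were other pseudocounts, filters, scalings and fits, a replicate block and leaving out each library. A planned search for active site patterns in the proteins was not run.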

Additional observations from a re-analysis of the deposited data

How the results depend on the processing

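The log2 difference kept its sign under every alternative run for BXL1, BXL2, BGAL1, BGAL2, BGAL4, BGAL5 and XYL1; its range was -2.53 to -2.40 for BXL2, -2.47 to -2.39 for BGAL1, -1.93 to -1.76 for BXL1, -1.98 to -1.83 for BGAL4, -1.14 to -1.01 for BGAL2 and -0.40 to -0.24 for XYL1. BXL4 (-0.14 to 0.08) and BGAL3 (-0.05 to 0.07) lay on both sides of 0. BGAL5 (-0.19 to -0.08) came past the threshold in 3 alternatives: the filter at 10 RPKM, median-of-ratios scaling and quantile normalization. As the comparison chose the 10 genes, this is a description and nothing is read from it. With a filter at 10 RPKM, which tests fewer loci, 4812 genes were called higher and 3696 lower, against 7736 and 6063, and 12 wall and sugar genes lower, against 22. Quantile normalization left 11 wall and sugar genes higher, against 18; the cause was not tested. The other BXL and BGAL genes gave 1 higher under all alternatives and 6 lower under all but no filter (7), the filter at 10 RPKM (4) and, chosen after seeing the data, leaving out genes that passed the filter through 1 genotype only (5); that last change left 17 wall and sugar genes higher and 21 lower. Leaving out 1 library at a time gave 7068 to 7464 genes higher and 5491 to 5734 lower, and 14 to 17 wall and sugar genes higher and 18 to 21 lower. Of the single genes outside the 10, 1197 of the values under alternatives kept direction and side of the threshold, 51 lost the threshold, 17 gained it and 11, of 6 genes past the threshold in neither fit, changed sign. These were CSLC6 (-0.036 with median-of-ratios scaling, -0.054 with quantile normalization), UGE2 (-0.0014 and -0.033 with the same settings), BGLC2 (-0.010 with median-of-ratios scaling), GUS3 (-0.013 with quantile normalization) and, leaving out 1 library at a time, CSLC6 (-0.0018 to 0.031), BGLC2 (-0.098 to 0.124), AGAL1 (-0.176 to 0.050) and BGAL9 (-0.033 to 0.021); no gene printed above as risen or fallen with a p lost it under an alternative that tested it. With a replicate block, 7423 genes were called higher and 5832 lower. Same-numbered libraries did not deviate together (r = 0.03, -0.14 and -0.00 for numbers 1 to 3). Differently numbered libraries gave r from -0.09 to 0.11. These values show no sign of pairing by number, but they cannot exclude it. Levels under about 0.05 RPKM rest on a few reads per library and resolve no difference.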
